A study of Mus musculus with 46 samples.

Results

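This section describes 9 genes of transforming growth factor beta (TGF-beta) signalling and its feedback, out of 10453 gene symbols in the count tables. They were chosen by symbol and comprise the ligands Tgfb1 and Tgfb2, the receptors Tgfbr1 and Tgfbr2, the receptor-regulated signal transducers Smad2 and Smad3, and the feedback inhibitors Smad7, Skil and Tgif1. All 9 were present in the tables of both treatments. They were picked with their behaviour in these libraries already known, so their changes are given as descriptions. Where the fit over all genes called a member, the call is counted beside the share of all genes called and is not independent support.

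The libraries came from EPP2, a mouse pancreatic cancer cell line grown in culture. Ribosome footprints (the short mRNA stretches protected by translating ribosomes) and RNA were sequenced from 4 groups. These were control cells with the solvent DMSO, control cells with torin 1, Ctu1 inducible knockout (iKO) cells with DMSO and Ctu1 iKO cells with torin 1. Torin 1, an inhibitor of the mTOR kinase, was given at 300 nM for 2 h. The knockout was switched on with doxycycline at 300 ng/ml for 4 days before the experiment. The sample records list the same doxycycline treatment for the control groups. Ctu1 encodes an enzyme subunit that modifies the wobble uridine of certain tRNAs, which read the VAA codons AAA, CAA and GAA. The labels call the control genotype WT and do not name its guide RNA. The cells with inducible Cas9 came from a single clone. Footprints were available for 6 control DMSO, 5 Ctu1 iKO DMSO, 6 control torin 1 and 6 Ctu1 iKO torin 1 libraries. RNA values come from replicates 1 to 3 of each group. The comparisons ask how mTOR inhibition and loss of Ctu1, alone and together, bear on these genes.

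A cell receives TGF-beta through a pair of receptor kinases. The type II receptor, Tgfbr2, binds the ligand and activates the type I receptor, Tgfbr1, which phosphorylates Smad2 and Smad3. These join Smad4, enter the nucleus and bind DNA at short Smad-binding elements. Among the genes they switch on are the inhibitors of the pathway: Smad7 blocks and degrades the receptor, while Skil (SnoN) and Tgif1 are corepressors that hold Smad complexes in check. In pancreatic epithelium the pathway restrains growth, and pancreatic tumours often lose part of it.

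Footprint totals ran from 4602092 to 52907878 counts (median 15387951, 23 libraries), and the 12 RNA libraries from 129881946 to 293648854. The library with the lowest footprint total was Ctu1 iKO torin 1 replicate 1, and torin 1 changes in Ctu1 iKO footprints are given with and without it where it stands highest or lowest. By their overall torin 1 profile, all 23 footprint libraries and all RNA libraries of replicates 1 to 3 fell on the side of their treatment label, while 6 RNA libraries with higher replicate numbers did not. Ctu1 itself was barely counted: footprints were 2.53 ± 0.65 CPM (SD, n = 6) in control DMSO and 1.79 ± 0.416 (n = 5) in Ctu1 iKO DMSO, and RNA was 4.62 ± 0.12 and 4.63 ± 0.302 (n = 3 each). Neither difference passed the test (edgeR adjusted p = 0.353 and 0.926). Small deletions made by Cas9 need not lower the count of a gene's reads, so these counts are no check of the knockout. In control DMSO RNA, 4 of 6 epithelial markers were listed, without Cdh1 and Krt7, along with 4 of 4 mesenchymal, 5 of 5 fibroblast and 1 of 4 leukocyte markers. No endothelial, acinar or islet marker was listed.

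Of the 9 genes, Tgif1 had the clearest response to torin 1. Tgif1 encodes a homeodomain protein that binds DNA and recruits repressors to Smad complexes. All levels in the text are CPM, counts scaled to library size with the trimmed mean of M-values (TMM), and log2 changes come from edgeR with their SE. Tgif1 footprints in control DMSO ranged from 73.1 to 101 CPM with a median of 82.0 (mean 84.5 ± 10.1, n = 6). With torin 1 the control cells had 116 to 139 CPM, with a median of 121 (123 ± 8.65, n = 6). Every torin 1 library lay above every DMSO library, and all 6 same-numbered pairs were higher, for a log2 change of 0.55 (SE 0.09). In bulk libraries such as these, a change in the share of cells that make a transcript and a change in the amount per cell cannot be told apart.

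The Ctu1 iKO cells had a similar step from a higher start. Their DMSO libraries had 105, 97.1, 84.7, 96.8 and 107 CPM of Tgif1 footprints (98.0 ± 8.71, n = 5). With torin 1 the range was 113 to 183 CPM with a median of 175 (163 ± 27.5, n = 6). Again the groups did not overlap, and the log2 change was 0.73 (SE 0.13). The lowest torin 1 value was that of replicate 1, the shallow library, and without it the change was 0.80. The difference between the torin 1 effects of Ctu1 iKO and control cells was 0.19 (SE 0.15) on the log2 scale, and was not called.

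Tgif1 RNA moved in step with its footprints. Control DMSO cultures had 105, 97.7 and 97.6 CPM, and control torin 1 cultures had 166, 169.7 and 164. The Ctu1 iKO cultures had 119.7, 114 and 124 CPM with DMSO and 183, 210.1 and 189 with torin 1. Each group was thus clear of the next, in the order control DMSO, Ctu1 iKO DMSO, control torin 1, Ctu1 iKO torin 1. Torin 1 changed the RNA by 0.73 (SE 0.06) in control and 0.69 (SE 0.09) in Ctu1 iKO cells on the log2 scale, and 1.34% and 2.38% of all tested genes had a higher change. Loss of Ctu1 went with smaller differences of 0.27 (SE 0.07) with DMSO and 0.23 (SE 0.08) with torin 1. In footprints the differences with Ctu1 loss were 0.22 (SE 0.10) and 0.40 (SE 0.12), and the groups overlapped.

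**Figure D1:**
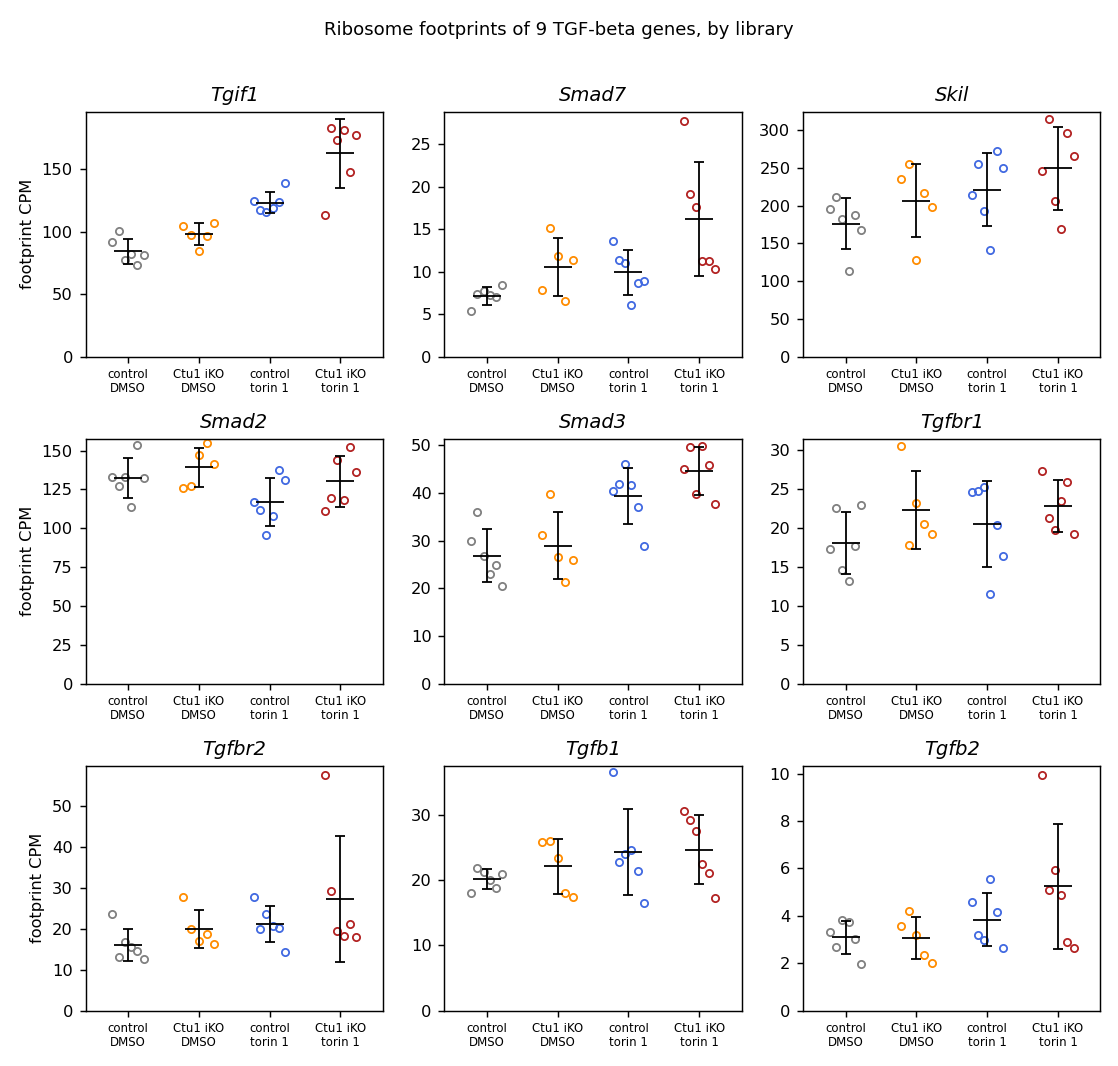
Footprint CPM (y axis, from 0) of each of the 9 genes in the 4 groups (x axis), with 1 open circle per library and black bars for the mean ± SD. Tgif1 with torin 1 lies above DMSO in every library of both genotypes, and 1 Ctu1 iKO torin 1 library of Tgfbr2 stands at 57.5 CPM.

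Smad3, the transducer that binds DNA directly, also had higher values under torin 1 in both assays. Footprints ranged from 20.4 to 36.0 CPM in control DMSO (median 25.9, mean 26.8 ± 5.54, n = 6) and from 28.8 to 46.1 CPM in control torin 1 (median 41.1, mean 39.3 ± 5.93, n = 6). The groups overlapped, but all 6 same-numbered pairs were higher with torin 1, and the log2 change was 0.55 (SE 0.15). For Ctu1 iKO cells, DMSO libraries had 31.1, 39.9, 26.6, 21.3 and 25.9 CPM, and torin 1 libraries 37.7 to 49.9 with a median of 45.5 (44.7 ± 5.01, n = 6). The groups overlapped, with a log2 change of 0.62 (SE 0.16).

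Smad3 RNA in control cells was 47.9, 46.7 and 40.3 CPM with DMSO and 71.8, 67.8 and 56.3 with torin 1. Ctu1 iKO cells had 49.3, 48.6 and 34.7 CPM with DMSO and 82.8, 72.3 and 53.0 with torin 1. The torin 1 groups lay above the DMSO groups without overlap in both genotypes, by 0.54 (SE 0.11) and 0.64 (SE 0.20) on the log2 scale. With loss of Ctu1, Smad3 RNA differed by -0.01 (SE 0.14) with DMSO and 0.10 (SE 0.17) with torin 1, and the footprints by 0.11 (SE 0.17) and 0.19 (SE 0.13).

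Smad2, which has a similar role but does not bind DNA directly in its main form, went in the opposite direction. Its RNA was 117, 127 and 123 CPM in control DMSO and 88.9, 109 and 104 in control torin 1, without overlap (log2 change -0.28, SE 0.09). The Ctu1 iKO cells had 124, 140.0 and 128 CPM of RNA with DMSO and 99.1, 117 and 118 with torin 1, again without overlap (-0.24, SE 0.10). Smad2 was the only one of the 9 genes with a lower level under torin 1 in both assays and both genotypes. Footprints were 132 ± 12.9 CPM in control DMSO (114 to 154, median 133) and 117 ± 15.4 in control torin 1 (96.0 to 138, median 114, n = 6 each). They overlapped, though 0 of 6 pairs were higher with torin 1. Footprints in Ctu1 iKO cells were 126, 127, 147, 155 and 142 CPM with DMSO and 111 to 153 (median 128) with torin 1, a log2 change of -0.10 (SE 0.11), or -0.07 without the shallow library, the lowest.

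The sequence upstream of Tgif1 and of Smad3 is shown because both genes had higher levels with torin 1 and because Smad proteins regulate such genes through short elements in their promoters. Each window holds the 250 bases before the outermost RefSeq transcription start on build GRCm38.p6, read on the minus strand, at chr17:70853533-70853782 for Tgif1 and chr9:63757995-63758244 for Smad3. Capitals mark the Smad-binding element CAGACA, searched on both strands.
Tgif1: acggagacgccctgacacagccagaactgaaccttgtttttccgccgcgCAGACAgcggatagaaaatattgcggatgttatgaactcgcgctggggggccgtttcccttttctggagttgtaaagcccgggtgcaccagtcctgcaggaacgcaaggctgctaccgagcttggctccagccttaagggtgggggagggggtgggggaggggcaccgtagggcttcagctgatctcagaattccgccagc
Smad3: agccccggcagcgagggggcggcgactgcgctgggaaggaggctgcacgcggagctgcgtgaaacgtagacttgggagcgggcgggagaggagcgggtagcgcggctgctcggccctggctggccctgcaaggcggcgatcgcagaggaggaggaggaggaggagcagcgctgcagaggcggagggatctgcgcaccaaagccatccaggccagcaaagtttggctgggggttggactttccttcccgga
The element occurs 1 time in the Tgif1 window and not in that of Smad3. It was found in 4 of 11 windows over the 6 genes of the set with a RefSeq promoter entry, and in 17.1% of 32851 windows of the same length, so its presence is common. The 4 windows were those at 2 starts of Tgif1, 1 of Tgfbr1 and that of Tgfb2. The core of the TGIF element, TGTCA, was found in 4 of 11 windows against 40.0% of all windows, at 3 starts of Tgif1 and 1 of Tgfbr1. The E-box CACGTG was found in the Tgfb2 window alone (6.02% of all windows). The FoxO element GTAAACA (3.17%) and the palindromic Smad element GTCTAGAC (0.167%) were in none of the 11. These are matches of letters and not sites of binding.

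Smad7, an inhibitory Smad that competes for the receptor, was counted at low levels. Its footprints ranged from 5.34 to 8.47 CPM in control DMSO (median 7.30, mean 7.19 ± 1.05, n = 6) and from 6.07 to 13.7 in control torin 1 (median 9.94, mean 9.95 ± 2.64, n = 6). Among Ctu1 iKO libraries, those with DMSO had 7.90, 15.2, 11.8, 6.52 and 11.4 CPM, and those with torin 1 ran from 10.4 to 27.7 (median 14.4, mean 16.2 ± 6.73, n = 6). The mean was thus highest in the cells with both perturbations, yet the groups overlapped in each of the 4 comparisons. The log2 changes were 0.46 (SE 0.19) with torin 1 in control, 0.60 (SE 0.29) with torin 1 in Ctu1 iKO, 0.55 (SE 0.21) with Ctu1 loss in DMSO and 0.69 (SE 0.26) with Ctu1 loss in torin 1. All 6 pairs were higher with Ctu1 loss in torin 1. The highest value was that of the shallow library, Ctu1 iKO torin 1 replicate 1, and without it the last difference was 0.48 and the torin 1 change in Ctu1 iKO cells 0.38.

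Smad7 RNA was 11.7, 13.0 and 11.8 CPM in control DMSO and 14.7, 19.2 and 14.4 in Ctu1 iKO DMSO, which did not overlap (log2 difference 0.42, SE 0.13). With torin 1 it was 15.7, 17.7 and 13.9 CPM in control and 20.3, 22.9 and 15.7 in Ctu1 iKO cells. The control groups did not overlap between treatments (0.38, SE 0.11), whereas those of Ctu1 iKO cells did (0.27, SE 0.17). Replicate 2 had the highest Smad7 RNA in all 4 groups.

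Skil, the most abundant of the 9 genes in footprint CPM before correction for length, varied widely between libraries of the same group. Footprints ranged from 114 to 211 CPM in control DMSO (median 185, mean 176 ± 33.7) and from 142 to 272 in control torin 1 (median 232, mean 221 ± 48.6, n = 6 each). All 6 pairs were higher with torin 1 (log2 change 0.33, SE 0.16), although the groups overlapped. The Ctu1 iKO DMSO libraries had 236, 255, 128, 216 and 199 CPM and the torin 1 libraries 169 to 314 with a median of 255, a log2 change of 0.26 (SE 0.19). With torin 1, Skil was higher in Ctu1 iKO than in control cells in 6 of 6 pairs by 0.0854 to 0.30 on the log2 scale, a small step beside the spread within each group.

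Skil RNA was 136, 149.6 and 134 CPM in control DMSO and 173, 228 and 157 in control torin 1, without overlap (log2 change 0.41, SE 0.14). In Ctu1 iKO cells it was 175, 223 and 105 CPM with DMSO and 174, 219 and 145 with torin 1, which overlapped (0.08, SE 0.27). The order of replicates was shared between groups: replicate 2 was highest and replicate 3 lowest in 4 of 4 groups.

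**Figure D2:**
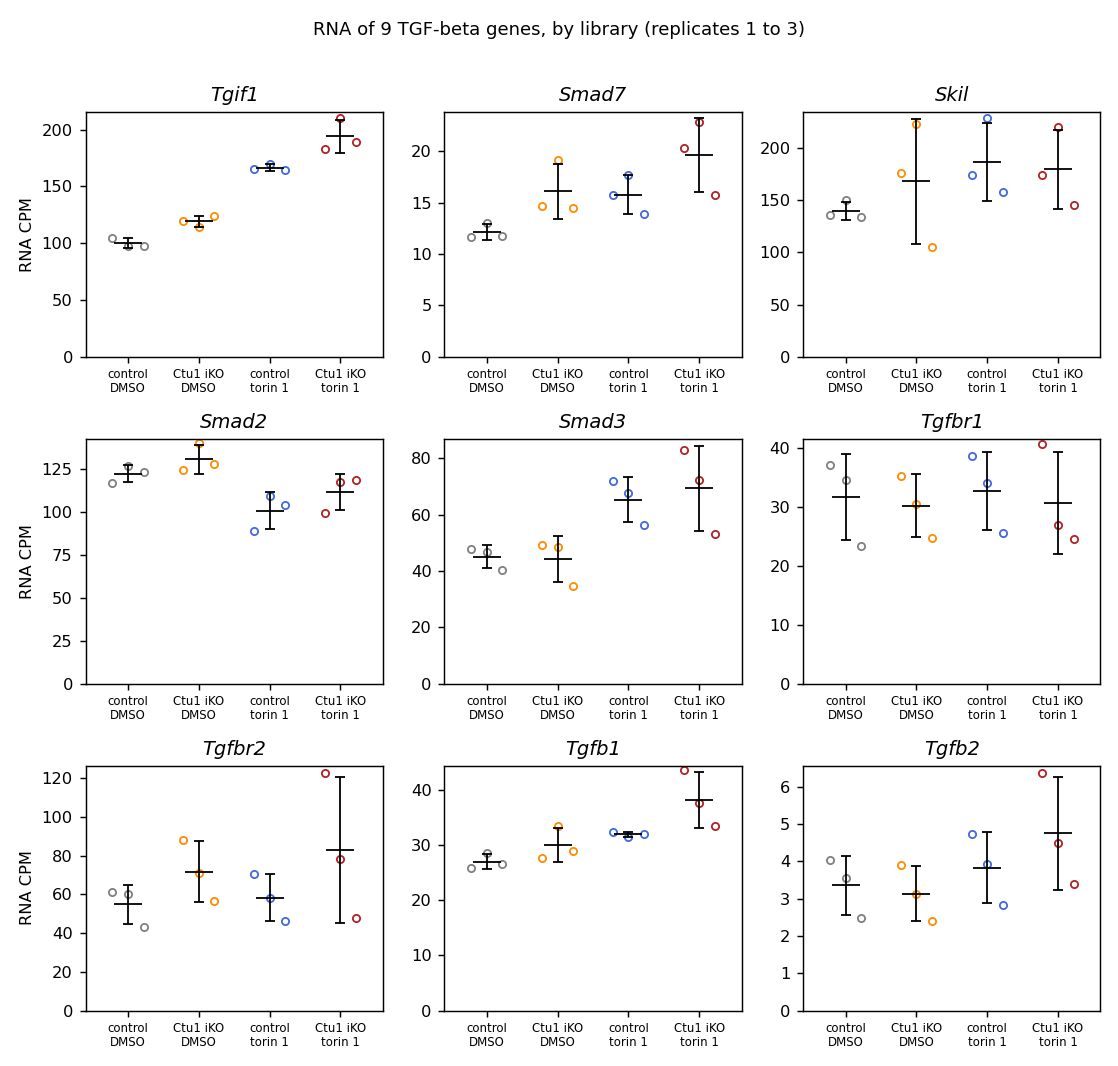
RNA CPM (y axis, from 0) of each of the 9 genes in the 4 groups (x axis), with 1 open circle per library in the order of replicates 1 to 3 and black bars for the mean ± SD. The Tgif1 groups do not overlap, while the order of replicates recurs across groups for Skil, Smad3, Tgfbr1, Tgfbr2 and Tgfb2.

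Footprints of the type I receptor Tgfbr1 ranged from 13.2 to 22.9 CPM in control DMSO (median 17.4) and from 11.5 to 25.2 in control torin 1 (median 22.5). They were 30.5, 17.8, 23.2, 20.5 and 19.2 CPM in Ctu1 iKO DMSO and 19.2 to 27.3 in Ctu1 iKO torin 1 (median 22.3). Every group overlapped every other, and torin 1 changes were 0.18 (SE 0.20) in control and 0.03 (SE 0.16) in Ctu1 iKO cells on the log2 scale. The latter was -0.03 without the shallow library, which was the highest, and its sign also turned without any 1 of 4 other libraries. Tgfbr1 RNA was 37.1, 34.5 and 23.4 CPM in control DMSO and its log2 changes in the 4 comparisons ran from -0.08 to 0.04, with SE from 0.19 to 0.23. With errors of this size, a modest change in either direction would not have been detectable by these fits, which ignore pairing. Replicate 1 had the highest and replicate 3 the lowest RNA in every group. Same-numbered RNA pairs differed by -0.02 to 0.125 with torin 1 in control and -0.19 to 0.20 in Ctu1 iKO cells. With Ctu1 loss they differed by -0.18 to 0.08 in DMSO and -0.34 to 0.07 in torin 1.

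Tgfbr2, the receptor that binds the ligand first, had footprints of 12.6 to 23.6 CPM in control DMSO (median 14.9) and 14.4 to 27.7 in control torin 1 (median 20.4, log2 change 0.39, SE 0.17), and 6 of 6 pairs were higher. With Ctu1 iKO the DMSO libraries had 27.8, 19.9, 16.9, 18.7 and 16.4 CPM and the torin 1 libraries 18.0 to 57.5 with a median of 20.2. The value of 57.5 was replicate 1, the shallow library with 272 footprint counts on this gene. Without that library the torin 1 change in Ctu1 iKO cells went from 0.43 to 0.08, and the difference with Ctu1 loss in torin 1 from 0.35 to 0.01. Tgfbr2 RNA was 61.2, 60.0 and 43.2 CPM in control DMSO, 88.1, 70.8 and 56.4 in Ctu1 iKO DMSO, 70.8, 58.2 and 46.1 in control torin 1 and 123, 78.2 and 47.9 in Ctu1 iKO torin 1. Replicate 1 was highest and replicate 3 lowest in every group, and 3 of 3 pairs were higher with Ctu1 loss under either treatment (0.41, SE 0.18 with DMSO and 0.51, SE 0.32 with torin 1). Without replicate 1 of the Ctu1 iKO cells these were 0.23 and 0.12, in fits that kept replicate 1 of the control cells. The same-numbered pairs differed by 0.24 to 0.52 with DMSO and by 0.06 to 0.79 with torin 1.

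The ligands differed in abundance, Tgfb1 being the better counted. Tgfb1 footprints ranged from 18.1 to 21.9 CPM in control DMSO (median 20.5) and from 16.5 to 36.6 in control torin 1 (median 23.4). In Ctu1 iKO cells they were 25.9, 26.0, 23.5, 18.0 and 17.4 CPM with DMSO and 17.3 to 30.7 with torin 1 (median 25.0). These overlapped throughout, with changes of 0.27 (SE 0.15) and 0.15 (SE 0.18). The first was 0.115 without control torin 1 replicate 1, the highest at 36.6 CPM, and the second 0.07 without the shallow library. Tgfb1 RNA was steadier: 25.9, 28.4 and 26.6 CPM in control DMSO against 32.4, 31.5 and 32.0 in control torin 1 did not overlap (0.24, SE 0.07). Ctu1 iKO cells had 27.7, 33.4 and 28.9 CPM with DMSO and 43.5, 37.6 and 33.4 with torin 1 (0.34, SE 0.12).

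Tgfb2, the second ligand, stood near the bottom of what the footprints can resolve, with 32 to 156 counts per library. It ranged from 1.95 to 3.82 CPM in control DMSO (median 3.16) and from 2.63 to 5.55 in control torin 1 (median 3.66). With Ctu1 iKO it was 3.57, 4.19, 3.20, 2.34 and 2.00 CPM in DMSO and 2.65 to 9.94 with torin 1 (median 4.99). The highest value was again replicate 1, without which the torin 1 change in Ctu1 iKO cells went from 0.75 to 0.48 and the difference with Ctu1 loss in torin 1 from 0.42 to 0.16. Tgfb2 RNA was 4.03, 3.56 and 2.49 CPM in control DMSO, 3.89, 3.11 and 2.40 in Ctu1 iKO DMSO, 4.73, 3.91 and 2.84 in control torin 1 and 6.36, 4.50 and 3.38 in Ctu1 iKO torin 1. With either genotype 3 of 3 pairs were higher with torin 1, with changes of 0.19 (SE 0.24) and 0.59 (SE 0.27).

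Side by side, torin 1 went with a higher log2 value in 8 of 9 genes in footprints and RNA of both genotypes. Over all genes tested the shares above 0 were 52.7% and 52.2% in footprints and 50.2% and 50.7% in RNA of control and Ctu1 iKO cells. The exception among the members was Smad2 in each case. Over both assays and all 4 comparisons with torin 1 or Ctu1 loss, 15 of 65 changes of members that were not called turned sign when some 1 library was left out. With torin 1, the sign turned in such fits, made without pairing, for Tgfbr1, Tgfbr2 and Skil. The order of replicates in their RNA recurred across groups, so leaving out 1 library also shifts the balance of replicates. In same-numbered pairs of control RNA, the torin 1 change ran from -0.02 to 0.125 for Tgfbr1 and -0.04 to 0.21 for Tgfbr2. In Ctu1 iKO RNA it ran from -0.19 to 0.20 for Tgfbr1, -0.24 to 0.48 for Tgfbr2 and -0.02 to 0.47 for Skil. Without Ctu1 iKO torin 1 replicate 1, the change in Ctu1 iKO cells was -0.03 for Tgfbr1 footprints, -0.25 for Tgfbr1 RNA and -0.20 for Tgfbr2 RNA, and without Ctu1 iKO DMSO replicate 3 that of Tgfbr1 RNA was -0.11. In Ctu1 iKO footprints the Tgfbr1 sign also turned without DMSO replicate 2 (-0.04), 4 or 5 or torin 1 replicate 5. Without control torin 1 replicate 1, that in control RNA was -0.09 for Tgfbr1 and -0.07 for Tgfbr2, and without control DMSO replicate 3 it was -0.13 and -0.05. Skil RNA in Ctu1 iKO cells changed by -0.16 without DMSO replicate 3 and by -0.08 without torin 1 replicate 2. The median change over the 9 genes was 0.33 in control footprints and 0.43 in Ctu1 iKO footprints, beside 0.015 and 0.018 over all genes tested. For RNA it was 0.24 and 0.27. At an edgeR adjusted p under 0.05, 2 of 9 genes were called with torin 1 in control footprints, Tgif1 and Smad3, where 7.24% of 9856 genes were called. The same 2 were called in Ctu1 iKO footprints (8.00% of 9855 genes) and in control RNA (13.1% of 9617), and Tgif1 alone in Ctu1 iKO RNA (8.25% of 9619). Groups without overlap and higher with torin 1 numbered 1 of 9 in footprints of each genotype (1.99% and 3.39% of all genes), 5 of 9 in control RNA (15.1%) and 2 of 9 in Ctu1 iKO RNA (14.3%). Lower without overlap in RNA was Smad2 alone in each genotype (18.0% and 16.4% of all genes). Since the genes were chosen with these values known, nothing is read from the counts.

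Levels of cell type markers also differed between treatments in RNA. The 4 mesenchymal markers summed to 5290 to 6670 CPM in control DMSO and 7160 to 8980 in control torin 1, and to 6460 to 9720 in Ctu1 iKO DMSO and 10900 to 18300 in Ctu1 iKO torin 1. The listed epithelial markers, 4 with DMSO and 3 with torin 1, summed to 267 to 283 and 345 to 378 CPM in control and to 295 to 364 and 478 to 526 in Ctu1 iKO cells. Both sums were thus higher with torin 1 without overlap in RNA, and under torin 1 both were higher in Ctu1 iKO than in control cells, while in footprints the sums overlapped between treatments. Their part in the changes of the 9 genes was not tested.

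With the replicate number as a block, 4 of 9 genes were called with torin 1 in control footprints (Tgif1, Skil, Smad3 and Tgfbr2; 20.5% of all genes), 6 of 9 in control RNA (43.7%) and 6 of 9 in Ctu1 iKO RNA (35.1%). The added calls in RNA were Smad7, Smad2 and Tgfb1 in both genotypes, Skil in control and Smad3 and Tgfb2 in Ctu1 iKO cells. All same-numbered pairs of Smad3 were higher with torin 1 in control footprints, Ctu1 iKO footprints and control RNA (6 of 6, 5 of 5 and 3 of 3). In fits without the block, the call of Smad3 depended on which 1 library was left out. It ended in 7 of 12 fits of control footprints, 6 of 11 of Ctu1 iKO footprints and 3 of 6 of control RNA. The share of all genes called in these fits ran from 5.67% to 7.48%, 5.35% to 9.35% and 4.28% to 12.8%. Tgif1 stayed called in all of these and in 5 of 6 fits of Ctu1 iKO RNA, where it was lost without Ctu1 iKO DMSO replicate 2.

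**Figure D3:**
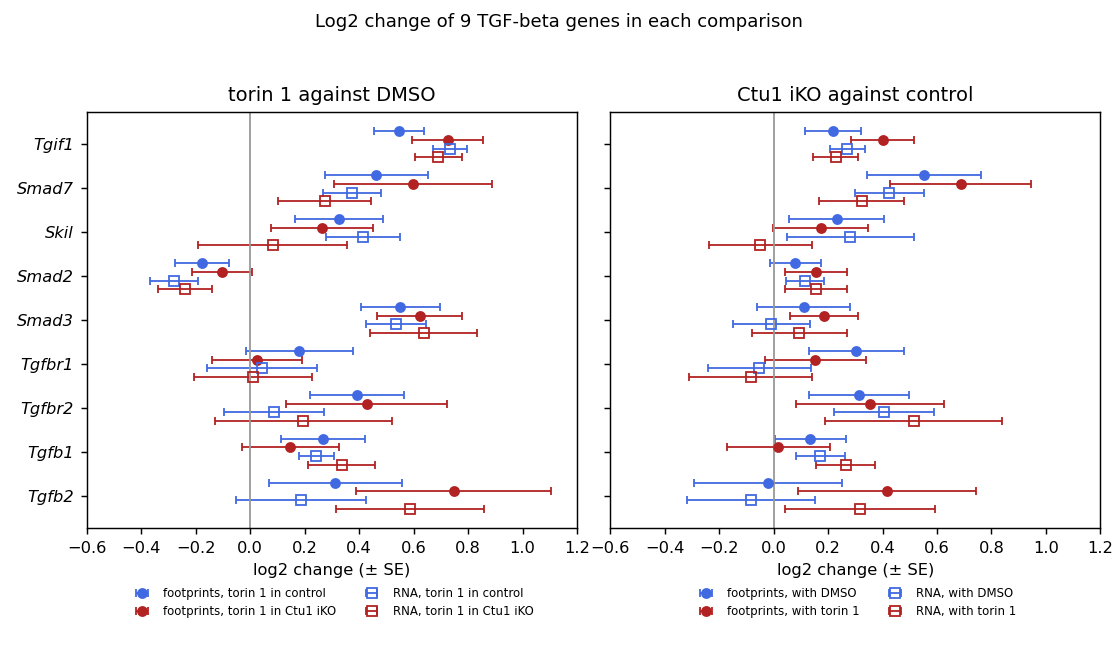
Log2 change (x axis) with its SE for each of the 9 genes (y axis), for torin 1 against DMSO on the left and Ctu1 iKO against control on the right, with filled circles for footprints and open squares for RNA. With torin 1, 8 of 9 genes lie above 0 in both assays and Smad2 lies below 0, while most differences with Ctu1 loss are smaller.

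With loss of Ctu1, 0 of 9 genes were called in any of the 4 comparisons, where 2.66% of genes were called in footprints with DMSO, 4.83% in footprints with torin 1, 5.12% in RNA with DMSO and 1.31% in RNA with torin 1. At an unadjusted p under 0.05 those shares were 17.9%, 18.8%, 24.4% and 20.0%. In footprints no member had groups without overlap (2.35% of all genes were higher without overlap with DMSO and 1.84% with torin 1). In RNA, Tgif1 and Smad7 were higher with DMSO (16.2% of all genes) and Tgif1 and Tgfb1 with torin 1 (14.0%). Under the block, the calls were Tgif1 and Smad7 in footprints with torin 1 (14.4% of all genes), Tgif1, Smad7 and Tgfbr2 in RNA with DMSO (28.0%), and Tgif1, Smad7, Tgfbr2 and Tgfb1 in RNA with torin 1 (32.8%). Without Ctu1 iKO torin 1 replicate 1, Tgif1 was called in footprints with torin 1 (log2 difference 0.49).

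No member differed in its torin 1 effect between the genotypes at an adjusted p under 0.05. In footprints 0.639% of 9857 genes did, all with a lower effect in Ctu1 iKO cells, and in RNA 0 of 9616 genes did (edgeR, with 140 genes at an unadjusted p under 0.05). The differences in torin 1 effect, Ctu1 iKO minus control, were between -0.15 and 0.44 in footprints. Those for Tgfb2 (0.44, SE 0.42) and Tgif1 (0.19, SE 0.15) were the highest and were little larger than their errors.

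Comparing levels between genes needs correction for length. In control DMSO footprints, per kb of coding sequence, Tgif1 had 103.5 ± 12.4 CPM, Smad2 94.3 ± 9.23 and Skil 87.0 ± 16.6 (n = 6), and these 3 overlapped. A wide step separated them from Smad3 (21.0 ± 4.34) and Tgfb1 (17.2 ± 1.28), which overlapped with each other. Tgfbr1 (11.9 ± 2.64) and Tgfbr2 (9.41 ± 2.36) followed and overlapped, then Smad7 (5.63 ± 0.818) and Tgfb2 (2.49 ± 0.561), which lay clear of each other. RNA per kb of transcript gave a different order: Tgif1 61.3 CPM, Smad2 50.7, Skil 20.8, Tgfbr2 15.8, Tgfb1 12.4, Smad3 8.84, Tgfbr1 5.50, Smad7 2.84 and Tgfb2 0.657 (means of 3 control DMSO cultures). The order of these RNA means was the same in all 4 groups. The corepressors Tgif1 and Skil and the transducer Smad2 were thus the members with most footprints per kb, and the inhibitor Smad7 and the ligand Tgfb2 those with fewest.

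Translational efficiency was taken as the log2 ratio of footprint to RNA CPM in the same culture. To compare genes, footprints were taken per kb of coding sequence and RNA per kb of transcript, by 1 principal transcript per gene. On this scale the mean in control DMSO was 2.22 ± 0.04 for Skil (SD, n = 3), above that of 91.0% of 9293 genes, and 2.02 ± 0.56 for Tgfb2. It was 1.45 for Smad3, 1.13 for Tgfbr1, 0.89 for Smad7, 0.89 for Smad2, 0.84 for Tgif1 and 0.49 for Tgfb1, beside a median of 0.63 over all genes. Tgfbr2 was lowest at -0.61 ± 0.47, above 11.4% of genes. The values of Smad7, Smad2 and Tgif1 overlapped. Tgfbr2 had the lowest mean of the 9 genes in each group, while the highest was that of Skil in both control groups and that of Tgfb2 in both Ctu1 iKO groups, with overlap between these genes in each. The order depends on the correction for length: without it Smad3 (-0.55) lay below Smad2 (0.10) and Tgif1 (-0.16) in control DMSO. Length cancels in comparisons within a gene, and the values that follow are without it. Skil lay between 0.16 and 0.53 over all 4 groups and Tgfbr2 between -2.19 and -0.97.

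For changes in translational efficiency, 0 of 9 members were called. The share of all genes called was 0 with Ctu1 loss in DMSO (0 of 10117, edgeR, with 388 at an unadjusted p under 0.05), 1.18% with torin 1 in control, 1.77% with torin 1 in Ctu1 iKO and 0.114% with Ctu1 loss in torin 1. Smad7 had efficiencies of -1.13, -0.83 and -0.60 in control DMSO, -0.20, -0.63 and -0.34 in control torin 1, -0.90, -0.34 and -0.29 in Ctu1 iKO DMSO and 0.45, -0.26 and 0.16 in Ctu1 iKO torin 1. Its changes with torin 1 were 0.45 (SE 0.24) in control and 0.58 (SE 0.36) in Ctu1 iKO cells. They rested on replicate 1, which includes the shallow library, and without it were 0.21 and 0.24. Tgif1 was lower with torin 1 in control cells, at -0.19, 0.04 and -0.34 with DMSO and -0.41, -0.54 and -0.50 with torin 1, a change of -0.32 (SE 0.15). The higher Tgif1 footprints with torin 1 thus came with higher RNA.

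**Figure D4:**
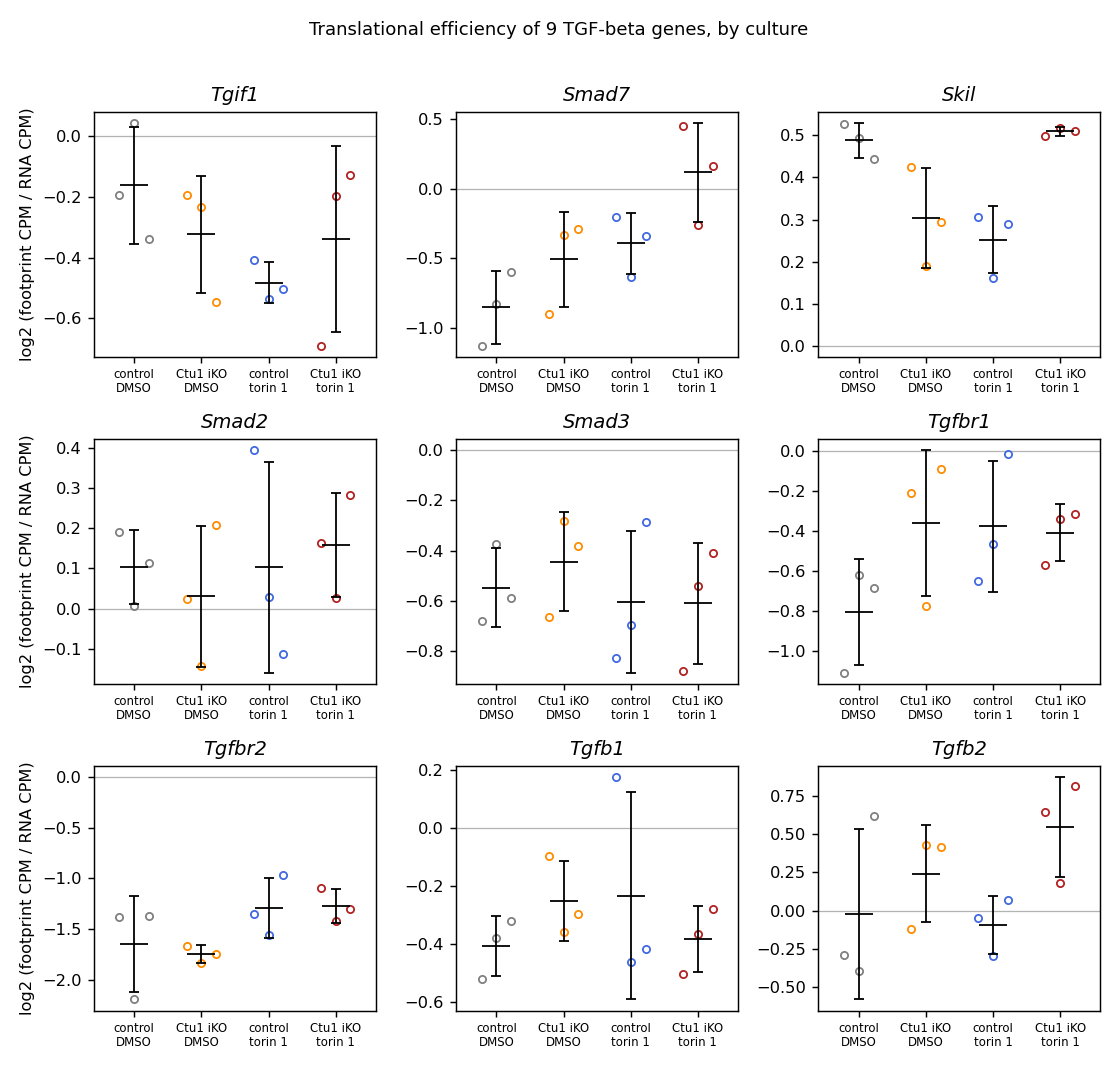
Translational efficiency (y axis, log2 of footprint CPM over RNA CPM, not corrected for length) of each of the 9 genes in the 4 groups (x axis), with 1 open circle per culture for replicates 1 to 3 and black bars for the mean ± SD. Skil stays between 0.16 and 0.53 and Tgfbr2 between -2.19 and -0.97, and Smad7 spans from -1.13 in control DMSO to 0.45 in Ctu1 iKO torin 1.

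By 1 principal transcript per gene, 8 of 9 members had a 5′ leader longer than the median of 164 nt over all genes, with a median of 442 nt over the members. Smad7 had 1427 nt, longer than 99.7% of genes, Tgfb2 1215 nt, Tgfb1 867 nt and Skil 725 nt. Tgfbr1 was the exception at 90 nt. The leaders of Smad2, Skil and Smad7 held 8, 7 and 6 ATG triplets, those of Tgfbr2 and Tgfb2 held 2 and 1, and the others none, which is also the median over all genes. Skil, which had the highest efficiency in control DMSO, was thus among the genes with most of these triplets. The 3′ UTR of Skil held 14 ATTTA motifs, more than 97.8% of genes.

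Content of VAA codons, which the Ctu1-dependent tRNAs read, differed widely between the members. VAA codons made up 1.88% of the codons of Smad3 (above 3.56% of genes), 3.53% of Tgfbr2, 3.99% of Smad7, 5.13% of Tgfb1, 5.52% of Tgif1, 6.76% of Tgfb2, 8.14% of Smad2, 8.30% of Skil and 8.55% of Tgfbr1 (above 73.9% of genes). The median over all genes was 6.13%, and 4 of 9 members lay above it. The members with most such codons, Tgfbr1, Skil and Smad2, had footprint differences with Ctu1 loss in DMSO of 0.30 (SE 0.18), 0.23 (SE 0.17) and 0.08 (SE 0.09). The 3 with fewest, Smad3, Tgfbr2 and Smad7, had 0.11 (SE 0.17), 0.31 (SE 0.18) and 0.55 (SE 0.21).

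Beyond the 9 genes, a list of 93 genes of the TGF-beta, activin and BMP pathways was followed, of which 73 were in the DMSO tables and 70 in the torin 1 tables. With torin 1 in control cells, 7 rose and 3 fell in footprints (14.3% called, beside 7.24% of all genes) and 7 rose and 6 fell in RNA (18.6% beside 13.1%). In Ctu1 iKO cells 6 rose and 0 fell in footprints (8.57% beside 8.00%), and 4 rose and 8 fell in RNA (17.1% beside 8.25%). The list was also chosen with results of these data known, and these shares are descriptions. With the replicate block the list had 25 calls in control footprints (20.5% of all genes), 40 in control RNA (43.7%) and 33 in Ctu1 iKO RNA (35.1%).

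Among the ligands, 2 of 4 rose with torin 1 in each assay and genotype. Inhba, which encodes the subunit of activin A, a ligand that also signals through Smad2 and Smad3, rose in RNA from 5.55 ± 0.767 to 11.3 ± 1.29 CPM in control cells (n = 3 each, log2 change 1.03, SE 0.13, edgeR adjusted p = 0.00431). In Ctu1 iKO cells it rose from 12.9 ± 1.13 to 30.6 ± 7.49 CPM (1.24, SE 0.18, edgeR adjusted p = 0.011). Its footprints rose by 1.39 (edgeR adjusted p = 0.0145) and 1.82 (edgeR adjusted p = 0.00386). Bmp2, a BMP ligand, rose in RNA from 4.92 ± 0.327 to 8.85 ± 1.05 CPM in control cells and from 5.67 ± 0.81 to 12.5 ± 1.06 in Ctu1 iKO cells (log2 changes 0.84 and 1.12, edgeR adjusted p = 0.00541 and 0.00725).

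Of the 20 listed target genes, 3 rose and 2 fell with torin 1 in control footprints and likewise in control RNA, while 2 rose in Ctu1 iKO footprints and 1 rose and 1 fell in Ctu1 iKO RNA. Cdkn2b, which encodes the cyclin-dependent kinase inhibitor p15 and is a classical Smad target, rose in RNA from 22.5 ± 0.534 to 42.5 ± 2.13 CPM in control cells (log2 change 0.92, edgeR adjusted p = 0.000627) and from 31.3 ± 1.82 to 52.0 ± 3.30 in Ctu1 iKO cells (0.72, edgeR adjusted p = 0.00735). Cdkn1a, which encodes p21, rose in control footprints from 37.1 ± 8.72 to 63.9 ± 18.7 CPM (n = 6 each, 0.78, edgeR adjusted p = 0.0189). Ccn1, a matrix protein also driven by YAP, fell in RNA from 87.6 ± 6.77 to 49.8 ± 6.69 CPM in control cells (-0.82, edgeR adjusted p = 0.00471) and from 68.5 ± 7.07 to 35.6 ± 7.84 in Ctu1 iKO cells (-0.96, edgeR adjusted p = 0.0167). Other targets that passed included Klf10, an early TGF-beta gene that rose in control footprints and RNA (0.61 and 0.71, edgeR adjusted p = 0.0371 and 0.0124), and Bhlhe40, which rose in control RNA (0.52, edgeR adjusted p = 0.0472), both named after their values were seen. Listed targets were thus found among the genes that rose and among those that fell.

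Other genes that fell with torin 1 were the p38 kinase Mapk14 in control footprints and RNA (-0.34 and -0.57, edgeR adjusted p = 0.0329 and 0.00612) and the cytokine gene Lif, also a listed target, in control RNA (-0.61, edgeR adjusted p = 0.00511). The corepressor Tgif2, the paralogue of Tgif1, fell in Ctu1 iKO RNA (-0.77, edgeR adjusted p = 0.00857), as did the activin receptor Acvr2a (-0.66, edgeR adjusted p = 0.0343). The Notch ligand Jag1, also a listed target, rose in Ctu1 iKO footprints (0.83, edgeR adjusted p = 0.0223). The calls of Mapk14 and Ccn1 in footprints held in 4 and 8 of 12 fits that each left out 1 library, and that of Jag1 in 8 of 11, while those of Inhba, Cdkn1a and Cdkn2b in control footprints with torin 1 held in all. In Ctu1 iKO RNA with torin 1, the calls of Inhba, Ccn1 and Tgif2 held in 4 of 6 fits each and that of Acvr2a in 1 of 6, whereas those of Bmp2 and Cdkn2b held in all. The count of listed genes called there went from 12 to 2 without Ctu1 iKO DMSO replicate 2 and to 3 without DMSO replicate 1. The share of all genes called went from 8.25% to 1.3% and 1.28% in the same fits.

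With loss of Ctu1, the listed genes that passed the test all rose. They numbered 2 of 73 in footprints with DMSO (2.74%, beside 2.66% of all genes), 3 of 70 in footprints with torin 1 (4.29% beside 4.83%), 6 of 73 in RNA with DMSO (8.22% beside 5.12%) and 2 of 70 in RNA with torin 1 (2.86% beside 1.31%). With the block the last 3 counts were 18, 24 and 33 (14.4%, 28.0% and 32.8% of all genes). Grem1, a secreted antagonist of BMP ligands, rose in each of these comparisons. Its footprints went from 5.12 ± 1.43 (n = 6) to 11.3 ± 2.73 CPM (n = 5) with DMSO (log2 difference 1.15, edgeR adjusted p = 0.0138) and from 8.19 ± 3.05 to 23.2 ± 3.95 CPM (n = 6 each) with torin 1 (1.51, edgeR adjusted p = 0.000698). Both calls held whichever library was left out. Its RNA went from 12.7 ± 2.56 to 36.7 ± 14.8 CPM with DMSO (1.55, edgeR adjusted p = 0.0285) and from 19.6 ± 5.05 to 58.0 ± 9.90 with torin 1 (1.57, edgeR adjusted p = 0.0317). These RNA calls held in 1 of 6 and 2 of 6 such fits. The share of all genes called in those RNA fits ran from 0% to 5.05% with DMSO, beside 5.12% with all libraries. With torin 1 it ran from 0.0104% to 4.21%, beside 1.31%.

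Inhba also rose in RNA with Ctu1 loss in torin 1 (1.44, edgeR adjusted p = 0.031, held in 2 of 6 fits), and the cells with both perturbations had its highest mean. Bmp2 and Cdkn2b rose in footprints with Ctu1 loss in torin 1, by 0.93 and 0.50 on the log2 scale (edgeR adjusted p = 0.0183 and 0.0281), and the call of Cdkn2b held in 6 of 12 fits. Pmepa1, a TGF-beta target that captures Smad2 and Smad3, rose in footprints with DMSO from 9.46 ± 2.08 to 18.6 ± 6.23 CPM (0.97, edgeR adjusted p = 0.0375, held in 4 of 11 fits). Dcn, which encodes the TGF-beta binding proteoglycan decorin, and Acta2, smooth muscle actin, rose in RNA with DMSO (1.36 and 2.21, edgeR adjusted p = 0.0199 and 0.0165, held in 2 and 3 of 6 fits). For the RNA fits of Inhba, Dcn and Acta2, the shares of all genes called are those given for Grem1. Acta2 is reported as uncertain, since actin genes have near-identical coding sequences and how the counting treated shared reads was not tested. Its footprints were 139.5 ± 34.0 CPM in control DMSO against 6.62 ± 2.59 CPM of RNA. The fibroblast markers, which include Dcn, summed to 120 to 199 CPM in control DMSO RNA and 135 to 219 in Ctu1 iKO DMSO RNA, and to 247 to 488 and 164 to 494 CPM in footprints. Their part in these differences was not tested. The difference in torin 1 effect between genotypes was not past the threshold for any listed gene (edgeR).

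**Figure D5:**
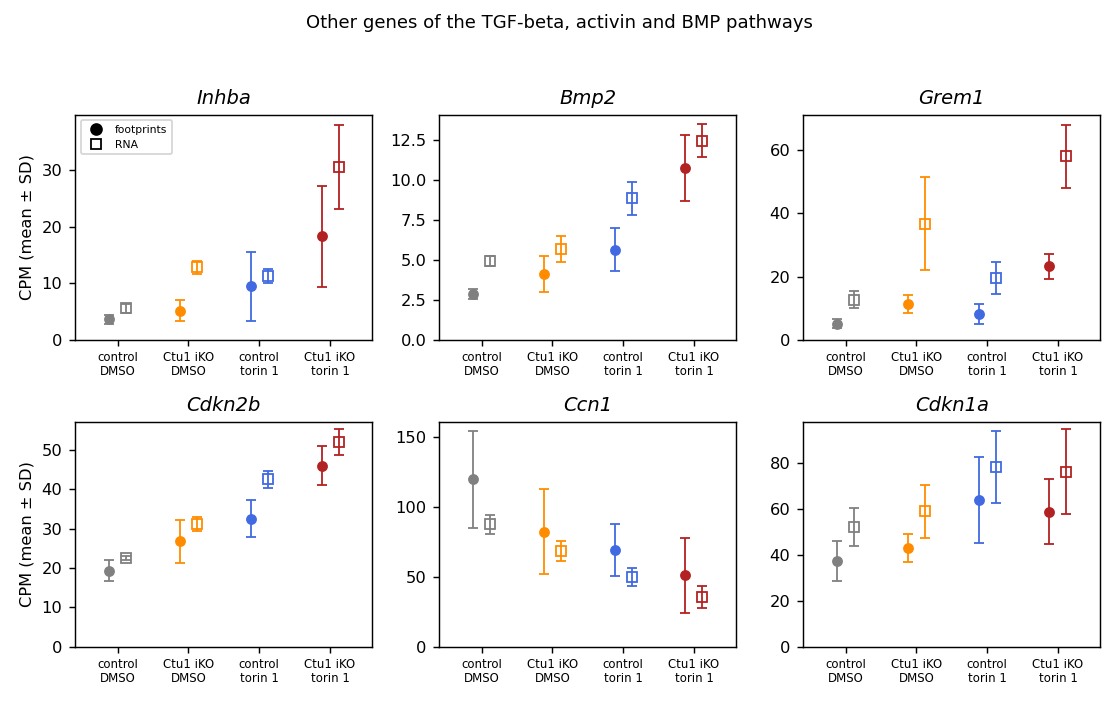
CPM (y axis, from 0) of 6 other pathway genes in the 4 groups (x axis), as mean ± SD, with filled circles for footprints (n = 5 or 6) and open squares for RNA (n = 3). Inhba, Bmp2, Grem1 and Cdkn2b have their highest means in Ctu1 iKO cells with torin 1, whereas Ccn1 has its lowest there and Cdkn1a has higher means with torin 1 than with DMSO in both genotypes.

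The genes whose footprint profile over the 23 libraries was most like that of 3 feedback inhibitors were listed by the smallest root mean square difference in centred log2 CPM among 8856 candidates. For Tgif1 these were Gabarapl1 (0.195), Spred1 (0.202), Tiam2 (0.205), Eps8 (0.206) and Mbnl2 (0.21). Sclt1 (0.206) led the list for Skil and Fzd5 (0.331) that for Smad7, whose low counts leave more spread. The measure depends on counting noise as well as on the groups.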

How the data were processed

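Ribosome footprints and mRNA were sequenced from EPP2 cells in 46 libraries. The deposited values are raw counts per gene, which the authors made from trimmed reads (cutadapt 3.4), with UMI-tools 1.1.1 and STAR 2.5.3a given for footprints. The submitters' processing notes give the mouse build GRCm38 (mm10). Footprints under 27 nt and rRNA reads were dropped per the study's methods, which name a human build for aligning footprints. Whether UMIs were collapsed was not given in the sources used here. All RNA counts were even, while 48.7% of footprint counts were odd. Every entry had at least 100 footprint counts in some library, so scarcer genes could not be examined. 11 symbols on several entries were left out.

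Counts were tested with edgeR 4.0.16 (R 4.3.3): quasi-likelihood fits by group, TMM factors, a minimum mean count of 10 per gene, Benjamini-Hochberg adjustment over all genes, and a threshold of 0.05. Translational efficiency was tested as an assay by group interaction over replicates 1 to 3 of both assays. RNA libraries of higher replicate numbers were left out because some went against their labels. Scripts were tested on simulated data. Levels are TMM-scaled CPM. Counting error was small beside the spread between libraries except for genes with few counts. The study's methods describe 2 independent replicates of the profiling experiment on successive days, fewer than the libraries labelled here. Its figure legends give 5 or 6 independent experiments for footprints and 2 for RNA. How the replicate numbers relate to these was not given in the sources used here, so p-values measure only the spread between these samples.

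Same-numbered samples deviated together in every pair, with correlations over 0.1, for torin 1 in control footprints (0.435 to 0.641), Ctu1 loss with torin 1 in footprints (0.319 to 0.547) and all RNA comparisons (0.492 to 0.839), and for these the fit with the replicate as a block is given beside the main one. Comparisons that share a group of libraries are not independent. The alternatives were DESeq2 1.42.0, library totals alone, no count filter, the block, 1 model of all groups, other sets of replicates and leaving out each library. Leader, codon and UTR features came from 1 principal GENCODE M21 transcript per gene, matched for 9634 of 9857 symbols (97.7%), and promoter windows from RefSeq on GRCm38.p6.

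The members and lists were chosen with earlier results of these data known. All 9 members were named. From the pathway list, up to 3 called genes with the highest and 3 with the lowest change were named for each comparison, with 100 or more counts on average, and 5 genes most like each of Tgif1, Smad7 and Skil were ranked. A listed gene that passed the test is not reported here.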

Additional observations from a re-analysis of the deposited data

Results flagged for a closer look

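Skil footprints in control DMSO replicate 4, at 114 CPM, stood apart from the other 5 libraries of its group, which ran from 168 to 211 CPM. The gap to the nearest library was 0.63 of the range of the group. Of 36 groups of 4 to 6 footprint libraries examined in this way 1 was marked, and chance marks about 5% of groups.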

How the results depend on the processing

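No called change of a member, or of a pathway gene named by the rule, changed direction under the alternatives run, of which 91 fits left out 1 library or replicate each. Over changes of members that were called or not, 111 of 1584 values had the other sign from the reported one, in 47 of 126 changes, none larger than 0.24 in size. The values of the 9 genes stayed within the spread between replicates in 1558 cases and moved beyond it in 26. Klf10 and Bhlhe40, named outside the rule, were not followed there. Of the pathway genes named by the rule, 386 cases kept their call and 89 lost it. The counts of calls depended on the fit, and the cause was not tested.

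With the replicate block, members called were 4 for torin 1 in control footprints, 2 for Ctu1 loss with torin 1 in footprints, and in RNA 3 for Ctu1 loss with DMSO, 6 for torin 1 in control, 6 for torin 1 in Ctu1 iKO and 4 for Ctu1 loss with torin 1, where the block called 14.4% to 43.7% of all genes. Pathway list genes called with the block were 25, 17 and 18 in footprints for torin 1 in control, torin 1 in Ctu1 iKO and Ctu1 loss with torin 1 (20.5%, 9.97% and 14.4% of all genes). In RNA they were 24, 40, 33 and 33 for Ctu1 loss with DMSO, torin 1 in control, torin 1 in Ctu1 iKO and Ctu1 loss with torin 1 (28%, 43.7%, 35.1% and 32.8%). The block moved no other count of calls by over 1.5 times.

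DESeq2 called 1 member for Ctu1 loss with torin 1 in footprints (8.50% of all genes), and 2, 6 and 2 in RNA for Ctu1 loss with DMSO, torin 1 in control and torin 1 in Ctu1 iKO (15.1%, 20.4% and 16.7%). Its pathway counts were 7, 11 and 8 in footprints for Ctu1 loss with DMSO, torin 1 in Ctu1 iKO and Ctu1 loss with torin 1 (6.74%, 12% and 8.50% of all genes). In RNA they were 16, 21 and 17 for Ctu1 loss with DMSO, torin 1 in control and Ctu1 loss with torin 1 (15.1%, 20.4% and 11.3%). With library totals alone, footprints gave 1 member for Ctu1 loss with torin 1 (4.87% of all genes) and 11 pathway genes for torin 1 in Ctu1 iKO (9.1%). In 1 model of all 4 groups, footprints gave 1 member for Ctu1 loss with torin 1 (8.54%). They gave 5, 11 and 6 pathway genes for torin 1 in control, torin 1 in Ctu1 iKO and Ctu1 loss with torin 1 (6.91%, 12% and 8.54%). RNA gave 1 and 3 members for torin 1 in control and in Ctu1 iKO (11.8% and 17.9%) and 16 pathway genes for Ctu1 loss with torin 1 (10.1%).

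With all RNA replicates as labelled, members called were 3 for Ctu1 loss with DMSO, 1 for torin 1 in control and 0 for torin 1 in Ctu1 iKO (26.4%, 9.51% and 0% of all genes), and pathway genes 23 for Ctu1 loss with DMSO, 0 for torin 1 in Ctu1 iKO and 0 for Ctu1 loss with torin 1. These sets include the libraries that went against their labels. Replicates 1 to 4 gave 4 members for torin 1 in control (18.3%) and 12 pathway genes for Ctu1 loss with torin 1 (8.69%). Chosen after seeing the data, RNA replicates 1 and 2 gave 4, 4 and 2 members for Ctu1 loss with DMSO, torin 1 in control and torin 1 in Ctu1 iKO (15.3%, 15.7% and 10.4% of all genes) and 22 pathway genes for Ctu1 loss with DMSO. Footprint replicates 1 to 3, also chosen after seeing the data, gave 0 members and 0 pathway genes in every comparison (0.0101% to 1.81% of all genes), with fewer libraries.

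Leaving out 1 library gave 1 to 2 members for torin 1 in control footprints (5.67% to 7.48% of all genes) and 1 to 2 in Ctu1 iKO footprints (5.35% to 9.35%). For Ctu1 loss with torin 1 in footprints it gave 0 to 1 (3.04% to 5.77%). In RNA it gave 0 to 1 for Ctu1 loss with DMSO (0% to 5.05%), 1 to 4 for torin 1 in control (4.28% to 12.8%) and 0 to 2 for torin 1 in Ctu1 iKO (1.28% to 11.7%). In the same fits, 1.39% to 2.74% of all genes were called in footprints for Ctu1 loss with DMSO. In RNA for Ctu1 loss with torin 1 the share was 0.0104% to 4.21%. Pathway counts ran from 1 to 4, 7 to 11, 4 to 10 and 2 to 5 in footprints for Ctu1 loss with DMSO, torin 1 in control, torin 1 in Ctu1 iKO and Ctu1 loss with torin 1, and from 0 to 9, 7 to 16, 2 to 17 and 0 to 11 in RNA in the same order. Footprints of Smad7 and Tgfb2 are limited by low counts.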
